A study of Mus musculus with 28 samples.

Results

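The 10 genes described here encode structural proteins of the kidney's basement membranes: the collagen IV chains Col4a1, Col4a2, Col4a3, Col4a4 and Col4a5, the laminin chains Lama5, Lamb2 and Lamc1, and the linking proteins nidogen-1 (Nid1) and agrin (Agrn). They were taken by symbol, and all 10 had a row among the 12315 genes of the whole kidney table. RNA was sequenced from whole kidneys of perfused female C57BL/6 mice, littermates aged 7 to 9 months. The 4 groups of 4 libraries were wild-type mice, Rhbdf2-/- mice, Fcgr2b-/- mice and mice lacking both genes, called double mutants below. Rhbdf2 encodes iRhom2, a partner of the protease ADAM17, and Fcgr2b encodes the inhibitory IgG receptor whose loss is known to bring lupus-like nephritis. Macrophages sorted from kidney (CD45+, F4/80 high, CD11b+, Ly6G-, Ly6C-) gave 12 further libraries, 3 per genotype, and their table of 10523 genes held 8 of the 10 genes but not Lamb2 or Nid1.

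Every cell layer of the nephron rests on a basement membrane in which a laminin network and a collagen IV network are joined by nidogen and heparan sulfate proteoglycans such as agrin. Chains of Col4a1 and Col4a2 form the collagen IV network common to most basement membranes, and in kidney they are also made by mesangial and endothelial cells. Chains of Col4a3, Col4a4 and Col4a5 form the network of the mature glomerular basement membrane, where podocytes make them, and of some tubular basement membranes, and mutations in their human counterparts cause Alport syndrome. Lama5, Lamb2 and Lamc1 together form the main laminin of the mature glomerular basement membrane. Col4a5 shares a trimer with Col4a3 and Col4a4 but lies on the X chromosome, apart from both.

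Among the collagen IV genes described here, 4 form head-to-head pairs with each other. Partners of Col4a5 outside the genes described here were not examined. In mm10, Col4a1 lay on the minus strand of chromosome 8 from 11198423 to 11312826 and Col4a2 on the plus strand from 11312805 to 11449287, so that their annotated starts overlapped by 22 bases. Col4a4 lay on the minus strand of chromosome 1 from 82448423 to 82586849 and Col4a3 on the plus strand from 82586921 to 82722059, with 71 bases between the starts. Between Fcgr2b-/- and wild-type kidney each pair moved together and the pairs moved in opposite directions. A link between start sequence and direction was not tested. The start regions of both pairs are shown as a description. They are taken from RefSeq promoter windows of build GRCm38.p6, which is mm10, and are read on the minus strand, toward Col4a1 (chr8:11312801-11312830) and toward Col4a4 (chr1:82586819-82586951). Capitals run from the annotated start of one gene to that of its partner.
Col4a1/Col4a2: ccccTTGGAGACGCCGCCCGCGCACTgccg
Col4a4/Col4a3: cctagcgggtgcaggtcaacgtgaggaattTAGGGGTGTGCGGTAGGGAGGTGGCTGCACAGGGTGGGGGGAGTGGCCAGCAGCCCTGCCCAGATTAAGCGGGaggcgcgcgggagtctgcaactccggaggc

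The 300-base window around the Col4a1 start held 74% G and C and 37 CpG dinucleotides, against medians of 52.7% and 7 over all 32851 RefSeq windows. The window around the Col4a4 start held 63.3% G and C and 14 CpG. The GC box letters GGGCGG, searched on both strands, occurred 1 time in the Col4a1/Col4a2 window, inside the capitals, and 0 times in the Col4a4/Col4a3 window. They occurred in 35.7% of all windows. The CCAAT box letters CCAAT occurred 1 time in the Col4a1/Col4a2 window and 0 times in the other, against 37.4% of all windows. The TATA box letters TATAAA and the AP-1 letters TGANTCA, found in 13.6% and 7.81% of all windows, occurred in neither. Windows were found by symbol for 8 of the 10 genes, not for Col4a3 or Lamc1.

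The other 6 genes lie apart from each other. Col4a5 runs from 141475385 to 141689234 on chromosome X, Lama5 from 180176373 to 180225859 on chromosome 2, Lamb2 from 108479862 to 108490530 on chromosome 9, Lamc1 from 153218922 to 153332786 on chromosome 1, Nid1 from 13437602 to 13512275 on chromosome 13 and Agrn from 156165290 to 156197488 on chromosome 4. Each value counts reads over the exons of a whole gene. The sources used here do not say whether counting used strand. Reads in the short overlap of Col4a1 and Col4a2, in a longer RefSeq model of Col4a4 that reaches into Col4a3, and in the non-coding genes or pseudogenes that RefSeq places across 6 of the 10 genes could therefore not be assigned with certainty.

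Per length of exon, the order of levels in wild-type kidney began with Col4a4 at 30.9 ± 0.834 CPM (reads of a library scaled to a fixed total, as the authors gave them) per kb (mean ± SD, n = 4) and Col4a1 at 28.7 ± 3.04, whose ranges overlapped. Col4a2 followed at 22.9 ± 2.31, Col4a3 at 15.9 ± 0.369 and Agrn at 15.7 ± 2.21, and the last of these overlapped with Col4a3. Lamb2 stood at 11.4 ± 1.01 CPM per kb. Nid1, Col4a5, Lama5 and Lamc1 lay between 7.96 and 9.52 CPM per kb, with overlapping ranges. In Fcgr2b-/- kidney the order differed: Col4a1 at 70.1 ± 22.7 and Col4a2 at 67.7 ± 14.3 CPM per kb came first, Col4a4 had rank 6 at 18.2 ± 1.63, and Col4a3 had rank 10 at 5.71 ± 1.89.

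What accompanies loss of the inhibitory receptor was read from Fcgr2b-/- against wild-type kidney. Of the 10 genes, 9 differed at a Benjamini-Hochberg adjusted p below 0.05, 7 higher and 2 lower, in a comparison that called 60.3% of all genes tested (29.5% higher and 30.8% lower). The higher genes were Col4a1, Col4a2, Lama5, Lamb2, Lamc1, Nid1 and Agrn, and the lower genes were Col4a3 and Col4a4. The median of the 10 log2 differences was 0.79, beside -0.01 over all genes. The libraries of the compared groups did not overlap for 8 of the 10 genes, as for 51.7% of all genes. In whole tissue, a change in the number of cells that make a transcript and a change in the transcript per cell cannot be told apart.

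Col4a1 was measured at 176, 195, 186 and 225 CPM in the wild-type libraries and at 603, 393, 613 and 303 CPM in the Fcgr2b-/- libraries. All Fcgr2b-/- libraries lay above all wild-type libraries, and they spread widely, with replicates 1 and 3 about double replicate 4. The log2 difference of Col4a1 was 1.23 ± 0.24 (SE, n = 4 per group; limma adjusted p = 0.000503). Its neighbour Col4a2 was measured at 145, 140, 147 and 174 CPM in wild-type and at 524, 397.8, 531 and 340 CPM in Fcgr2b-/- kidney. Col4a2 had the same order of Fcgr2b-/- libraries as Col4a1 with replicates 3 and 1 highest, and it rose by 1.54 ± 0.17 on the log2 scale (limma adjusted p = 4.45e-06).

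Col4a3 was measured at 154, 160, 162 and 157 CPM in wild-type kidney and at 66.1, 65.6, 67.2 and 28.6 CPM in Fcgr2b-/- kidney. Its wild-type values were tightly grouped, 3 Fcgr2b-/- libraries were nearly equal, and replicate 4 stood far below them. Col4a3 fell by 1.54 ± 0.21 on the log2 scale (limma adjusted p = 2.12e-05), and the difference was -1.24 to -1.65 over all alternatives. Col4a4, its divergent neighbour, was measured at 332, 314, 332 and 332 CPM in wild-type and at 200, 209, 194 and 169 CPM in Fcgr2b-/- kidney. The groups of Col4a4 were well apart and the fall was smaller than that of Col4a3, at 0.77 ± 0.09 on the log2 scale (limma adjusted p = 4.54e-06). The ratio of Col4a4 to Col4a3 reads was 2.07 ± 0.0843 (SD, n = 4) in wild-type, 2.2 ± 0.189 in Rhbdf2-/-, 3.75 ± 1.44 in Fcgr2b-/- and 2.78 ± 0.364 in double-mutant kidney.

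Col4a5, the third chain of that trimer, did not follow them. It was measured at 57, 75.4, 52.9 and 54.9 CPM in wild-type kidney and at 59.8, 54.6, 62.8 and 49.5 CPM in Fcgr2b-/- kidney. The groups overlapped, and the log2 difference was -0.07 with a 95% interval from -0.31 to 0.16 (limma adjusted p = 0.581). That interval does not reach the differences measured for Col4a3 and Col4a4.

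**Figure D1:**
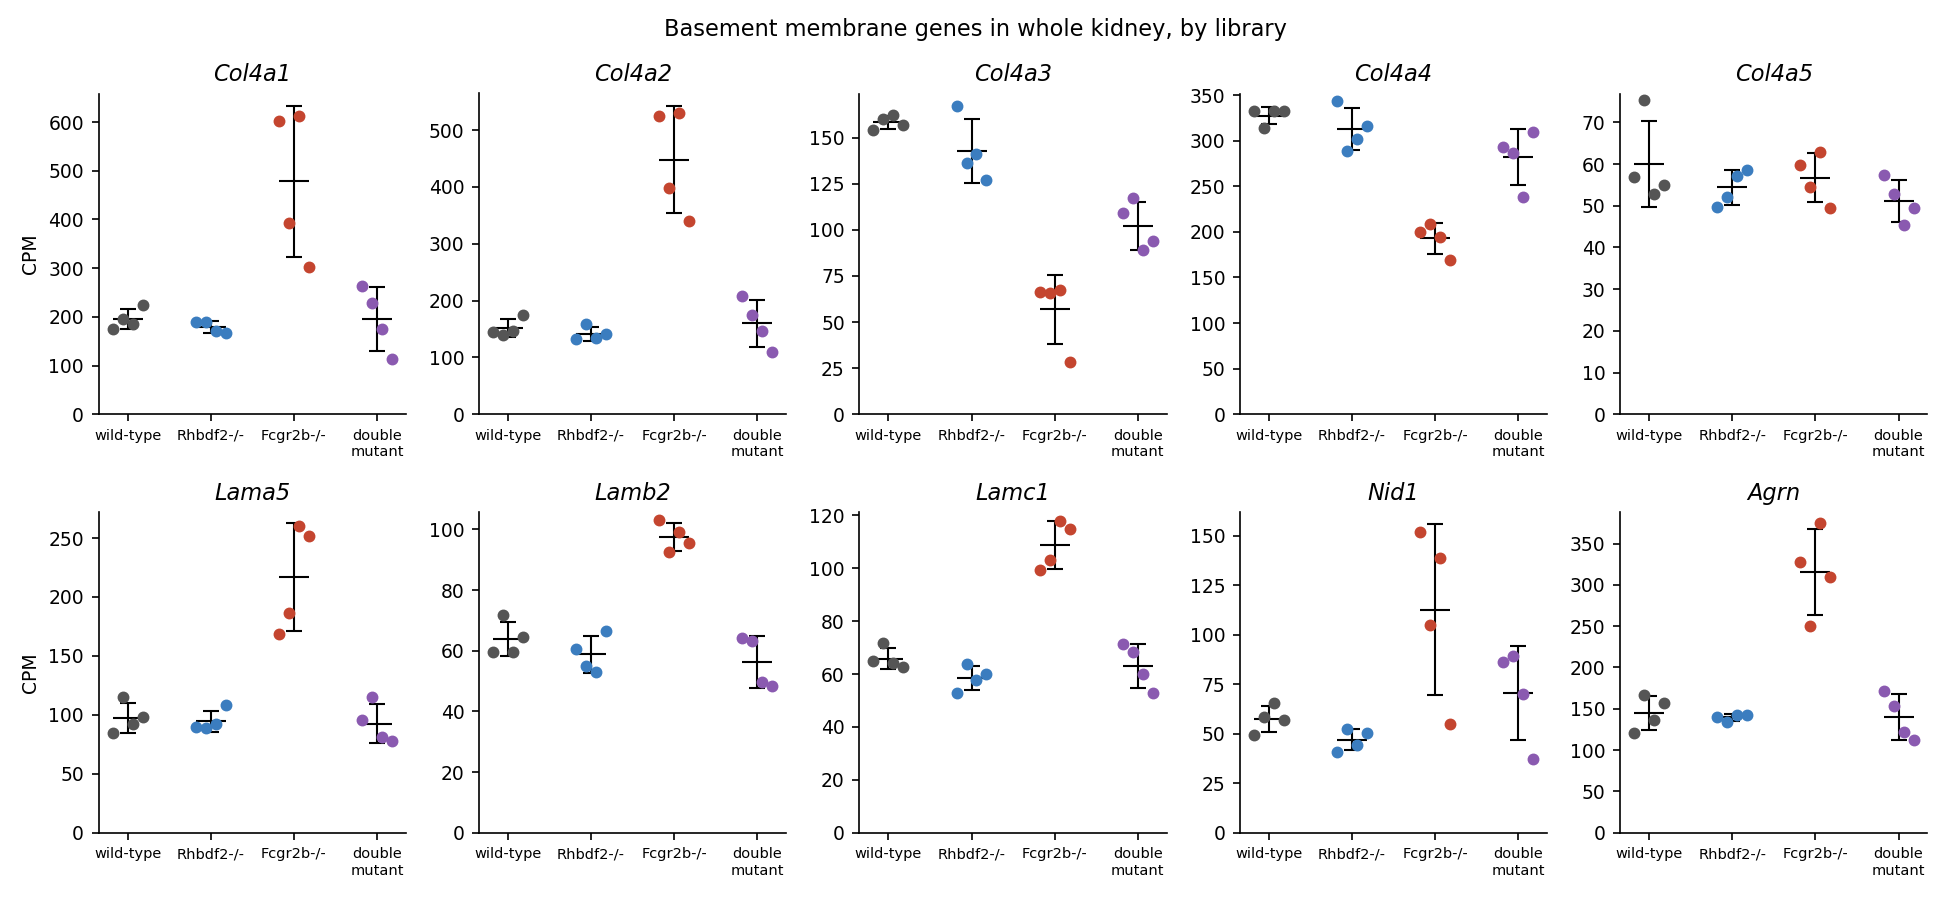
CPM of the 10 basement membrane genes in the 16 whole kidney libraries by genotype; points are libraries, the long tick is the group mean and bars are the SD over 4 libraries. Fcgr2b-/- libraries are highest for Col4a1, Col4a2, Lama5, Lamb2, Lamc1 and Agrn and lowest for Col4a3 and Col4a4, while Col4a5 lies between 45.3 and 75.4 CPM throughout.

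The laminin chains rose together in Fcgr2b-/- kidney. Lama5 was measured at 84.5, 115, 92.5 and 98.2 CPM in wild-type and at 169, 186, 260 and 252 CPM in Fcgr2b-/- kidney, a log2 difference of 1.13 ± 0.15 (limma adjusted p = 1.93e-05). Its highest Fcgr2b-/- values were in replicates 3 and 4, unlike those of Col4a1. Lamb2 was measured at 59.7, 71.7, 59.7 and 64.7 CPM in wild-type and at 103, 92.5, 99.2 and 95.4 CPM in Fcgr2b-/- kidney, and rose by 0.60 ± 0.10 (limma adjusted p = 0.000139). Lamc1, the chain shared by most laminins, was measured at 65, 71.6, 64 and 62.8 CPM in wild-type and at 99.3, 103, 118 and 115 CPM in Fcgr2b-/- kidney. It rose by 0.72 ± 0.09 (limma adjusted p = 1.44e-05), and for none of the 3 laminin chains did the groups overlap.

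Of the linking proteins, Agrn was measured at 121, 167, 137 and 157 CPM in wild-type and at 328, 250, 375 and 310 CPM in Fcgr2b-/- kidney. These groups were clearly apart, with a log2 difference of 1.11 ± 0.14 (limma adjusted p = 1.48e-05). Nid1, which joins laminin to collagen IV, was measured at 49.4, 58.4, 65.7 and 56.8 CPM in wild-type and at 152, 105, 139 and 54.9 CPM in Fcgr2b-/- kidney. Replicate 4 of Fcgr2b-/- lay within the wild-type range, and the log2 difference was 0.86 ± 0.29 (limma adjusted p = 0.0176). Over the alternatives the difference of Nid1 was 0.69 to 1.18, and the call was lost, with a limma adjusted p of up to 0.0611, when Fcgr2b-/- replicate 1 or replicate 3 was left out.

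The effect of losing Rhbdf2 where Fcgr2b was absent was read from double-mutant against Fcgr2b-/- kidney. Of the 10 genes 8 were called, 2 higher and 6 lower, and the comparison called 45.3% of all genes (22.5% higher and 22.8% lower). Each called gene differed in the direction opposite to its difference between Fcgr2b-/- and wild-type; these comparisons share the Fcgr2b-/- libraries and are not independent. The median of the 10 log2 differences was -0.79, beside 0.00 over all genes. The groups did not overlap for 8 of the 10 genes, as for 33.4% of all genes.

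Col4a1 was measured at 263, 229, 175 and 114 CPM in double mutants, each below every Fcgr2b-/- library, and its log2 difference from Fcgr2b-/- was -1.29 ± 0.24 (limma adjusted p = 0.000614). Col4a2 was measured at 208, 174, 147 and 110 CPM, a difference of -1.49 ± 0.17 (limma adjusted p = 1.52e-05). The spread of both genes in double mutants was wider than in wild-type, and replicate 4 was the lowest of all 16 kidney libraries for each.

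Col4a3 was measured at 109, 117, 89.1 and 93.8 CPM in double mutants. All of these lay above the Fcgr2b-/- and below the wild-type libraries, and Col4a3 was higher than in Fcgr2b-/- kidney by 0.90 ± 0.21 (limma adjusted p = 0.00267). Col4a4 was measured at 293, 287, 238 and 310 CPM, also between the other groups with no overlap, and was higher than in Fcgr2b-/- kidney by 0.54 ± 0.09 (limma adjusted p = 0.000183). Col4a5 ranged from 45.3 to 57.3 CPM and was not called (difference -0.14, 95% interval -0.38 to 0.09, limma adjusted p = 0.299).

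The laminin chains were lower in double mutants. Lama5 was measured at 95.5, 115, 81.5 and 78.1 CPM, Lamb2 at 64.3, 63.3, 49.8 and 48.3 CPM and Lamc1 at 71.3, 68.5, 60 and 52.9 CPM. Each double-mutant library lay below each Fcgr2b-/- library for these chains, and the log2 differences were -1.21 ± 0.15 for Lama5, -0.79 ± 0.10 for Lamb2 and -0.78 ± 0.09 for Lamc1 (limma adjusted p from 1.74e-05 to 3.24e-05). Agrn was measured at 172, 154, 122 and 112 CPM and differed by -1.17 ± 0.14 (limma adjusted p = 2.28e-05). Nid1, at 86.3, 89.1, 70.1 and 37.3 CPM, was not called (difference -0.64 ± 0.29, limma adjusted p = 0.0826). It was called without Fcgr2b-/- replicate 4, and also when 3 libraries, this one among them, were left out together, a choice made after seeing the data. The lowest limma adjusted p over all alternatives was 0.00367.

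The difference made by Rhbdf2 loss was then compared between mice without and with Fcgr2b, as double mutant minus Fcgr2b-/- less Rhbdf2-/- minus wild-type. This interaction was called for 8 of the 10 genes, 2 higher and 6 lower, against 27.8% of all genes. It was positive for Col4a3 (1.06 ± 0.29, limma adjusted p = 0.0153) and Col4a4 (0.61 ± 0.12). It was negative for Col4a1 (-1.17 ± 0.34, limma adjusted p = 0.0192), Col4a2 (-1.40 ± 0.24), Lama5 (-1.17 ± 0.21), Agrn (-1.12 ± 0.20), Lamb2 (-0.67 ± 0.14) and Lamc1 (-0.62 ± 0.13). Col4a5 (-0.01 ± 0.15) and Nid1 (-0.35 ± 0.41) were not called.

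**Figure D2:**
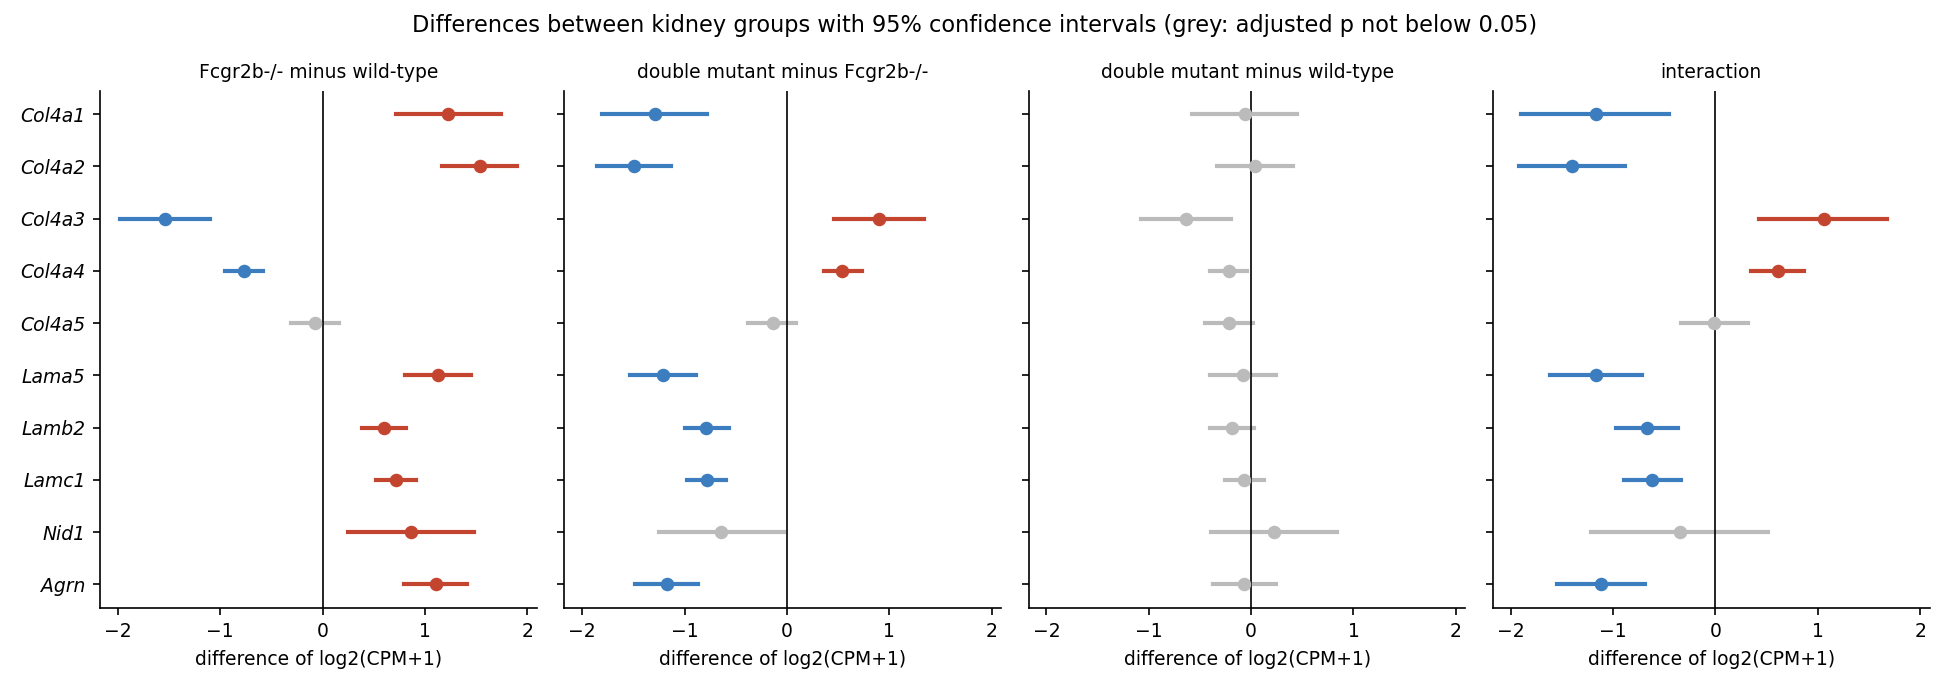
Differences in log2(CPM+1) of the 10 genes in 4 kidney contrasts, with 95% confidence intervals from limma; red is higher and blue lower at an adjusted p below 0.05, grey is not called. Col4a3 and Col4a4 run opposite to the other called genes in the contrasts that involve Fcgr2b-/- kidney, and in double mutant minus wild-type all 10 genes are grey.

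Double-mutant and wild-type kidney were compared to see what remained of these differences. None of the 10 genes was called, in a comparison that called 7.29% of all genes (4.52% higher and 2.77% lower), and the unadjusted p was below 0.05 for Col4a3 and Col4a4. The Col4a3 libraries did not overlap, at 89.1 to 117 CPM in double mutants against 154 to 162 in wild-type, as was the case for 17.9% of all genes. The difference was -0.64 ± 0.21 (limma adjusted p = 0.0752), and it passed when only these groups were fitted and when 3 libraries that stand apart were left out, with a lowest adjusted p of 0.00241. Col4a4 differed by -0.22 ± 0.09 (limma adjusted p = 0.133), also without overlap. Intervals for Col4a1 (-0.58 to 0.45), Col4a2 (-0.33 to 0.41), Lama5 (-0.40 to 0.24) and Agrn (-0.37 to 0.24) lay on both sides of 0, and none of these reached the difference seen in Fcgr2b-/- kidney.

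Against Rhbdf2-/- kidney, double mutants had 0 of the 10 genes called in a comparison that called 3.5% of all genes (2.32% higher and 1.18% lower). Col4a3 differed by -0.48 ± 0.21 (limma adjusted p = 0.175), and at 127 to 167 CPM in Rhbdf2-/- kidney it was the 1 gene whose libraries did not overlap, as for 15.7% of all genes. Between Rhbdf2-/- and wild-type kidney limma called 0 of 12315 genes, 0% of those tested, with 272 at an unadjusted p below 0.05. The 10 genes differed by -0.29 to -0.04 on the log2 scale there, the unadjusted p was 0.0895 or more, and the groups overlapped for all 10, with no overlap for 5.73% of all genes. In Rhbdf2-/- kidney Col4a1 was measured at 190, 190, 171 and 166 CPM, Col4a2 at 132, 159, 134 and 142 CPM, Col4a3 at 167, 136, 141 and 127 CPM and Col4a4 at 343, 289, 302 and 316 CPM. Loss of Rhbdf2 alone thus went with neither the high Col4a1 and Col4a2 nor the low Col4a3 and Col4a4 of Fcgr2b-/- kidney, and no Rhbdf2-/- library came within the Fcgr2b-/- range for these 4 genes. The laminin chains lay at 88.6 to 108 CPM for Lama5, 53 to 66.5 for Lamb2 and 52.8 to 63.8 for Lamc1, with Nid1 at 40.9 to 52.2 and Agrn at 134 to 142 CPM. The authors' deposited table also called 0 genes in that comparison, and it called the same numbers of the 10 genes between Fcgr2b-/- and wild-type, 7 higher and 2 lower, and between double mutant and Fcgr2b-/-, 2 higher and 6 lower.

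The balance of the gene pairs was described from levels per length. Col4a1 and Col4a2 summed to 51.6 ± 5.19 CPM per kb in wild-type, 47.7 ± 3.04 in Rhbdf2-/-, 138 ± 37 in Fcgr2b-/- and 52.8 ± 15.8 in double-mutant kidney (SD, n = 4 each). Col4a3 and Col4a4 summed to 46.8 ± 0.803, 43.8 ± 3.66, 23.9 ± 3.45 and 36.8 ± 3.63 CPM per kb in the same order of groups. The ratio of the sums was 1.02 to 1.26 in wild-type and 0.971 to 1.27 in Rhbdf2-/- libraries, 4.48 to 6.8 in Fcgr2b-/- libraries and 0.862 to 1.81 in double-mutant libraries. The Fcgr2b-/- ratios lay above every other library. Col4a3, Col4a4 and Col4a5 made up 48.3% to 53.6% of the reads per kb of the 5 chains in wild-type kidney and 16.8% to 22.6% in Fcgr2b-/- kidney.

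**Figure D3:**
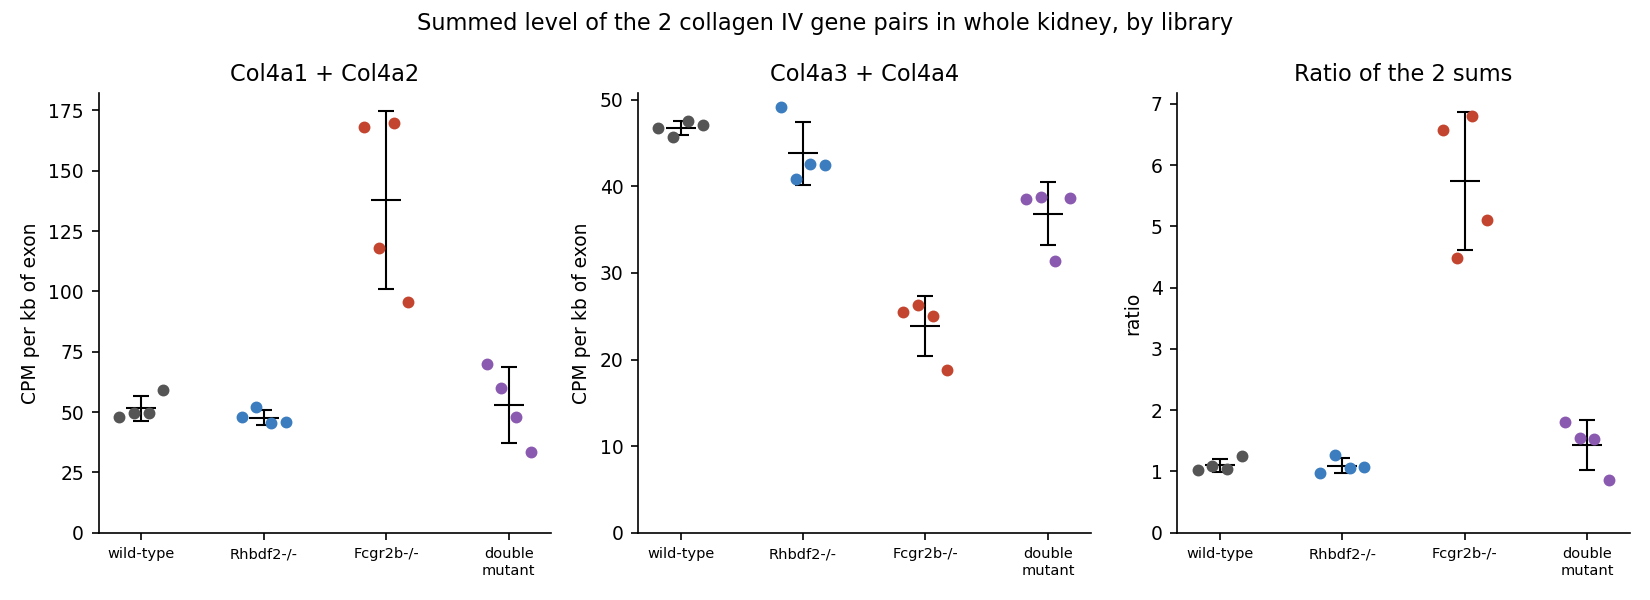
Summed level of Col4a1 and Col4a2 and of Col4a3 and Col4a4, in CPM per kb of exon, and the ratio of the sums, in 16 whole kidney libraries; points are libraries, the long tick is the mean and bars are the SD over 4 libraries. The ratio is 4.48 or more in each Fcgr2b-/- library and at most 1.81 in each other library.

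How the genes varied within a genotype was described from each library's deviation from its group mean, over 16 libraries that share their lanes by group. Across these deviations Pearson's r was 0.96 for Col4a1 with Col4a2 and 0.90 for Col4a1 with Nid1. For Col4a3 with Col4a4 it was 0.64. Across all libraries, group differences included, Col4a1 and Col4a3 had an r of -0.58, whereas across deviations it was 0.66. The opposite directions of these genes thus appeared between genotypes and not in the pooled deviations. Fcgr2b-/- replicate 4 was lowest of its group for both Col4a1 (303 CPM) and Col4a3 (28.6 CPM), and r without this library was not computed. Lama5 with Lamc1 had 0.74 and Lamb2 with Agrn 0.77, while Lama5 with Nid1 had 0.08.

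The genes most like 4 of the members over the 16 kidney libraries were found by Pearson's r of log2(CPM+1), as a description. For Col4a1 they were Pxdn (0.988), the peroxidase that cross-links collagen IV, Col18a1 (0.983), a collagen of basement membranes, Myh9 (0.983), Actn1 (0.975) and Coro1c (0.972), which encode proteins of the actin cytoskeleton. For Col4a3 they were Invs (0.982), a protein of the primary cilium, Atp6v0a2 (0.977), a proton pump subunit, Hipk2 (0.977), a protein kinase, Smarca2 (0.973), a chromatin remodeller, and Ston2 (0.972), an endocytic adaptor. For Lama5 they were Dos (0.970), the laminin-binding integrin chain Itgb4 (0.967), the ribosomal protein Rpl12 (0.965), Scara3 (0.963) and the cytolinker Plec (0.961). For Lamb2 they were Adamtsl5 (0.962), the basement membrane proteoglycan perlecan, Hspg2 (0.959), Synm (0.958), an intermediate filament protein, Jph2 (0.956) and the carboxypeptidase Cpe (0.956). These libraries share groups and lanes, so that any gene with the same order of group means has a high r.

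Other components of the basement membrane were read from a list of 24 genes, all of them measured. In Fcgr2b-/- against wild-type kidney 9 were higher, 6 lower and 9 not called, with a median log2 difference of 0.45. This share called was near that over all genes, 60.3% (29.5% higher and 30.8% lower). Sparc, a collagen-binding glycoprotein, rose by 2.10 ± 0.20, from 139 to 161 CPM in wild-type to 545 to 810 CPM. Col18a1 rose by 1.07 ± 0.19 and Lamb1, the laminin chain that Lamb2 replaces in the maturing glomerulus, by 0.56 ± 0.10. In the opposite direction Tinag, a tubular basement membrane antigen, fell by 1.46 ± 0.12, from 174 to 200 CPM to 51.6 to 81.5 CPM. Npnt, an integrin ligand, fell by 0.82 ± 0.15, Lamc3 by 0.98 ± 0.34 and Lama3 by 0.28 ± 0.10. In double mutants against Fcgr2b-/- kidney 4 of the 24 were higher, among them Tinag (1.17 ± 0.12) and Npnt (0.61 ± 0.15), 9 were lower, among them Sparc (-1.57 ± 0.20), Hspg2 (-0.95 ± 0.15) and Col18a1 (-0.98 ± 0.19), and 11 were not called. Double mutant against Fcgr2b-/- called 45.3% of all genes. Against wild-type, 0 of the 24 were called in double mutants, where 7.29% of all genes were.

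Enzymes and chaperones that fold, modify or cross-link collagen IV were a list of 14 genes, all of them measured. Between Fcgr2b-/- and wild-type kidney 7 were higher, 3 lower and 4 not called. Of all genes, 60.3% were called there and 45.3% between double mutant and Fcgr2b-/- kidney. Loxl2, a lysyl oxidase that acts on collagen IV, rose by 2.12 ± 0.32, and Pxdn by 1.12 ± 0.20, from 18.3 to 24.1 CPM to 34.4 to 61.2 CPM. The hydroxylysine galactosyltransferase Colgalt1 rose by 0.62 ± 0.12 and the prolyl hydroxylase Lepre1 by 0.45 ± 0.11. P4ha1, a subunit of another prolyl hydroxylase, fell by 0.76 ± 0.10. In double mutants against Fcgr2b-/- kidney 10 were lower, 1 higher and 3 not called, with Loxl2 at -1.53 ± 0.32, Pxdn at -1.13 ± 0.20, the lysyl hydroxylase Plod1 at -0.53 ± 0.12 and P4ha1 at 0.45 ± 0.10.

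Of 14 receptors for the basement membrane 7 were higher, 2 lower and 5 not called between Fcgr2b-/- and wild-type kidney. In either direction, 60.3% of all genes were called in this comparison and 45.3% in double mutants against Fcgr2b-/- kidney, near the shares of the receptors. By direction the receptors were less even than all genes. Of all genes 29.5% were higher and 30.8% lower in the first comparison, and 22.5% higher and 22.8% lower in the second. Itgb4 rose by 1.78 ± 0.22, the laminin receptor Bcam, which binds Lama5, by 1.23 ± 0.22, the tetraspanin Cd151 by 0.72 ± 0.07 and the collagen receptor Ddr1 by 0.50 ± 0.09. The integrin chains Itga1 and Itga6 fell by 0.44 ± 0.15 and 0.41 ± 0.12. In double mutants against Fcgr2b-/- kidney 7 of 14 were lower, among them Itgb4 (-2.00 ± 0.22), the podocyte laminin receptor chain Itga3 (-1.01 ± 0.19) and Cd151 (-0.70 ± 0.07), and 0 were higher. Of 11 measured proteases and inhibitors that act on matrix, 8 were higher and 2 lower between Fcgr2b-/- and wild-type kidney. The metalloproteinase inhibitor Timp1 rose by 4.13 ± 0.37, the metalloproteinase Mmp7 by 3.20 ± 0.37 and Adamts1 by 1.67 ± 0.20. Timp3, an inhibitor bound to matrix, fell by 1.47 ± 0.16, from 114 to 143 CPM to 31.7 to 57.2 CPM. In double mutants against Fcgr2b-/- kidney 7 were lower and 2 higher, with Adamts1 at -1.54 ± 0.20 and Timp3 at 0.74 ± 0.16.

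**Figure D4:**
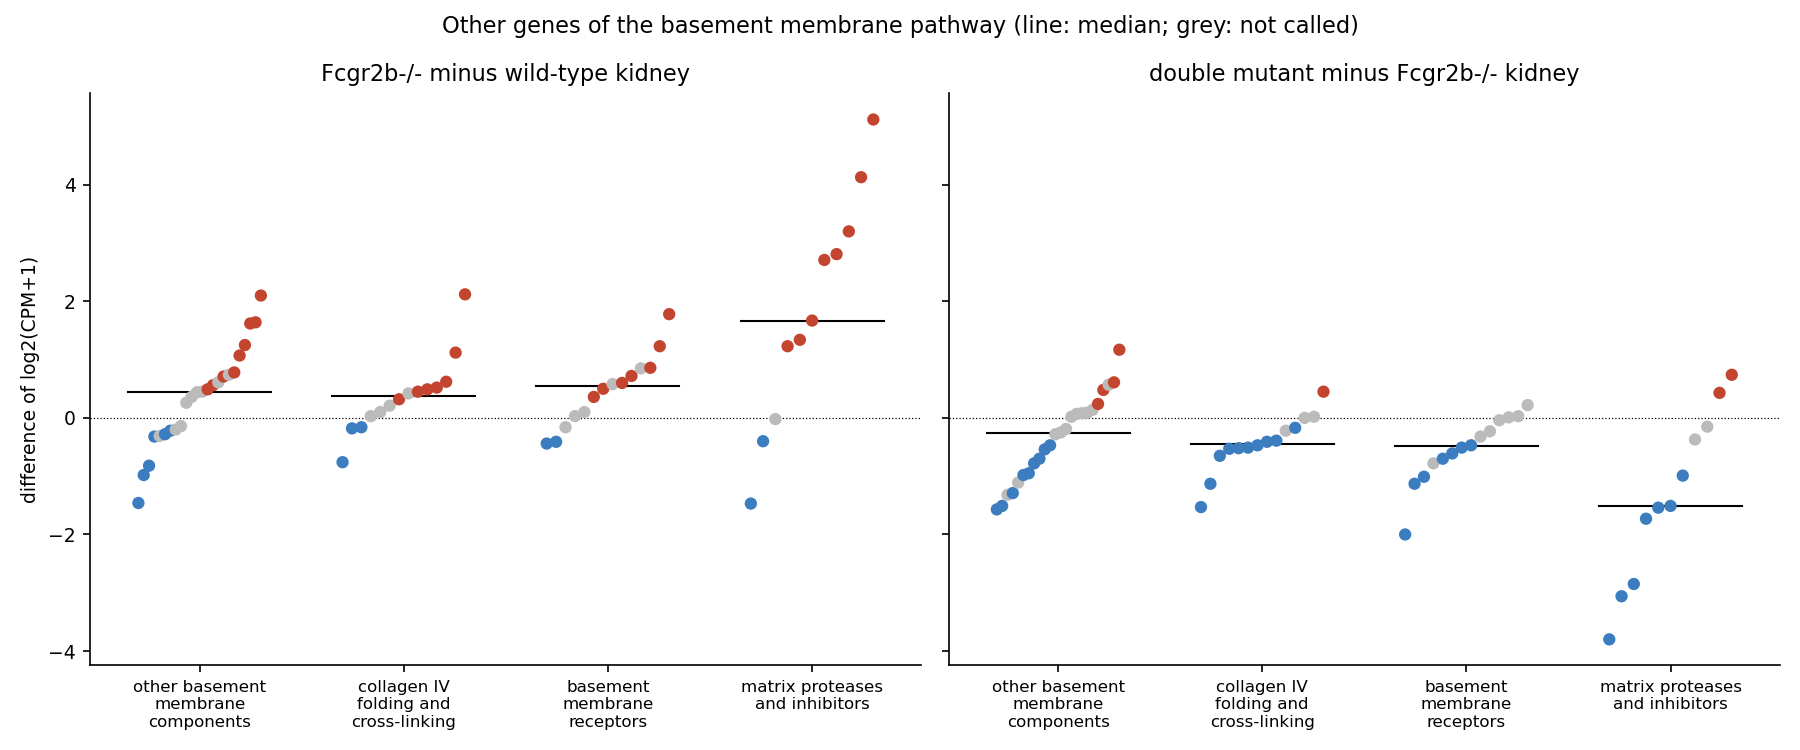
Differences in log2(CPM+1) of the measured genes of 4 lists around the basement membrane, in Fcgr2b-/- minus wild-type and double mutant minus Fcgr2b-/- kidney; each point is a gene, red is higher and blue lower at an adjusted p below 0.05, grey is not called, and the line is the median. The medians lie above 0 in the first contrast (0.45, 0.37, 0.54 and 1.67) and below 0 in the second (-0.26, -0.44, -0.49 and -1.51).

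Markers of the cells that make these proteins also differed between groups, and their part in the results was not tested. Between Fcgr2b-/- and wild-type kidney 29.5% of all genes were called higher and 30.8% lower. Podocyte markers, 9 of 10 measured, summed to 819 to 955 CPM in wild-type and to 497 to 947 CPM in Fcgr2b-/- kidney, where 1 was higher, 2 lower and 6 not called. Fcgr2b-/- replicates 1 and 2 had podocyte sums of 947 and 924 CPM, within or near the wild-type range, and Col4a3 values of 66.1 and 65.6 CPM, far below it. Replicates 3 and 4 had podocyte sums of 637 and 497 CPM. The slit diaphragm protein Nphs1 fell by 1.07 ± 0.30. Mesangial and fibroblast markers, 10 of 10 measured, summed to at most 429 CPM in any wild-type library. The sums were 304 to 368 CPM for Rhbdf2-/-, 810 to 1719 CPM for Fcgr2b-/- and 324 to 742 CPM for double-mutant kidney. Of these markers 6 were higher, 1 lower and 3 not called between Fcgr2b-/- and wild-type. Among Fcgr2b-/- libraries the sums of 1642, 1209, 1719 and 810 CPM had the same order as Col4a1.

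Endothelial markers summed to 714 to 821 CPM in wild-type and 599 to 860 in Fcgr2b-/- kidney, with 4 of 10 higher, 2 lower and 4 not called. Proximal tubule markers, all 10 lower, summed to 16509 to 19467 CPM in wild-type, 4652 to 9675 for Fcgr2b-/- kidney and 12333 to 15365 for double mutants. Of 10 distal nephron markers 5 were lower and 1 higher, with sums of 9734 to 9865 CPM in wild-type and 6589 to 8802 in Fcgr2b-/- kidney. All 8 tubular injury markers were higher in Fcgr2b-/- kidney, and the injury marker Lcn2 was measured at 248 to 900 CPM there, at 1.89 to 5.41 in wild-type and at 5.51 to 57 in double mutants. Havcr1, another injury marker, was measured at 50.1 to 304, 0.264 to 2.14 and 0.629 to 36.8 CPM in these groups. Macrophage markers, all 10 measured, summed to 223 to 278 CPM in wild-type, 1095 to 2883 for Fcgr2b-/- kidney and 412 to 1886 for double mutants. Between double-mutant and wild-type kidney 9 of these 10 macrophage markers were higher. That comparison called 7.29% of all genes and 0 of the 10 basement membrane genes, though Col4a3 and Col4a4 did not overlap.

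Kidney libraries held 29014193 to 41615008 reads in the listed genes, and macrophage libraries 30845024 to 34869562, and 3 reads, the floor used here for counting error, lay at 0.0677 to 0.106 CPM in kidney. The 10 basement membrane genes lay far above that floor in kidney, whereas the wild-type values of Timp1 (0.0875 to 0.286 CPM) and Mmp7 (0.0587 to 0.229 CPM) lay at or near it and their differences are understated by the log2(CPM+1) scale. Each kidney genotype was run on its own sequencing lane, and lane and genotype cannot be told apart. Mitochondrial transcripts took 10.4% to 11.8% of reads in wild-type and 5.87% to 14.5% in Fcgr2b-/- libraries, with the highest shares in Fcgr2b-/- replicate 4 (14.5%) and double-mutant replicate 4 (14.3%), the libraries lowest in their groups for Col4a1, Col4a2 and Nid1. Without these libraries and wild-type replicate 2, which stood apart in marker genes, the calls of the Fcgr2b-/- and wild-type comparison still numbered 9. Rhbdf2 reads were at 12.9 CPM in wild-type and 10.8 to 12.3 in Rhbdf2-/- kidney, and at 25 to 37.1 CPM for Fcgr2b-/- and 9.29 to 19.7 CPM for double mutants. Fcgr2b reads were at 29.3 to 35.8 CPM in wild-type and 23.4 to 34.2 CPM in Fcgr2b-/- kidney. Among double mutants Fcgr2b ranged from 20.7 to 41.5 CPM, and replicate 3, at 41.5, was above every wild-type library. Titles of double-mutant libraries mention the Rhbdf2 knockout alone; they were grouped by the genotype label, which names both genes. In the sorted macrophages Fcgr2b was at 539 to 715 CPM in wild-type and 256 to 382 CPM in Fcgr2b-/- libraries, without overlap. Double-mutant macrophages had 455 to 550 CPM, which overlapped with wild-type. Since the sources used here do not give the deleted part of either gene, these reads cannot settle whether the labels are right.

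In the sorted macrophages the basement membrane genes were low. Col4a1 ranged from 0.778 to 3.82 CPM, Col4a2 from 0.658 to 5.25, Col4a5 from 0.239 to 4.68 and Lama5 from 0.261 to 6.31 over the 12 libraries. Lamc1 stood at 5.79 to 18.7 CPM and Agrn at 4.8 to 12.8 CPM. Between Fcgr2b-/- and wild-type macrophages 3 of 8 genes were called, all lower, where 52.8% of all genes were called and 28.5% were lower. They were Col4a4 (-2.36 ± 0.64, limma adjusted p = 0.00879), Col4a3 (-1.83 ± 0.58, limma adjusted p = 0.0188) and Agrn (-0.76 ± 0.18, limma adjusted p = 0.00391). The Col4a3 call was lost, with a limma adjusted p of up to 0.0866, when wild-type replicate 1, wild-type replicate 2 or Fcgr2b-/- replicate 3 was left out, and the calls of Col4a4 and Agrn were not lost in any of 8 alternatives. The count of 3 rose to 5 without wild-type replicate 3, with Col4a5 and Lama5 added, and to 6 without Fcgr2b-/- replicate 1, with Col4a2, Col4a5 and Lama5 added, all lower. Between double-mutant and Fcgr2b-/- macrophages 1 of 8 was called, where 29.6% of all genes were: Col4a1 was at 0.778, 0.936 and 0.821 CPM in double mutants and 3.2, 3.82 and 3.5 CPM in Fcgr2b-/- cells, a difference of -1.29 ± 0.25 (n = 3 per group; limma adjusted p = 0.00285).

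Col4a3 was measured at 25, 16.2 and 2.9 CPM in wild-type macrophage libraries, 13, 11 and 12.9 in Rhbdf2-/-, 4.25, 2.84 and 0.936 in Fcgr2b-/- and 1.97, 4.04 and 1.81 in double mutants. Col4a4 was measured at 56.3, 41.4 and 11 CPM in wild-type and 14, 4.8 and 1.48 CPM in Fcgr2b-/- libraries. In both of these genotypes the libraries differed several-fold, and the summed distal nephron markers did likewise, at 7440, 5555 and 1681 CPM in wild-type and 1071, 563 and 396 CPM in Fcgr2b-/- libraries. All 9 distal nephron markers in the table were lower in Fcgr2b-/- than in wild-type macrophage libraries, as were 7 of 10 proximal tubule markers. Podocyte markers without a row in the table included Nphs1, Podxl, Synpo and Wt1, and macrophage markers summed to 28484 to 72429 CPM. The part of nephron transcripts in the Col4a3 and Col4a4 values was not tested. Mesangial and fibroblast markers, 3 of 10 measured, summed to 13.8 to 23 CPM in Fcgr2b-/- and 2.46 to 13.3 CPM in double-mutant macrophage libraries. Between these groups 2 of the 3 were lower, 0 higher and 1 not called. The part of such transcripts in the Col4a1 values was not tested either.

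**Figure D5:**
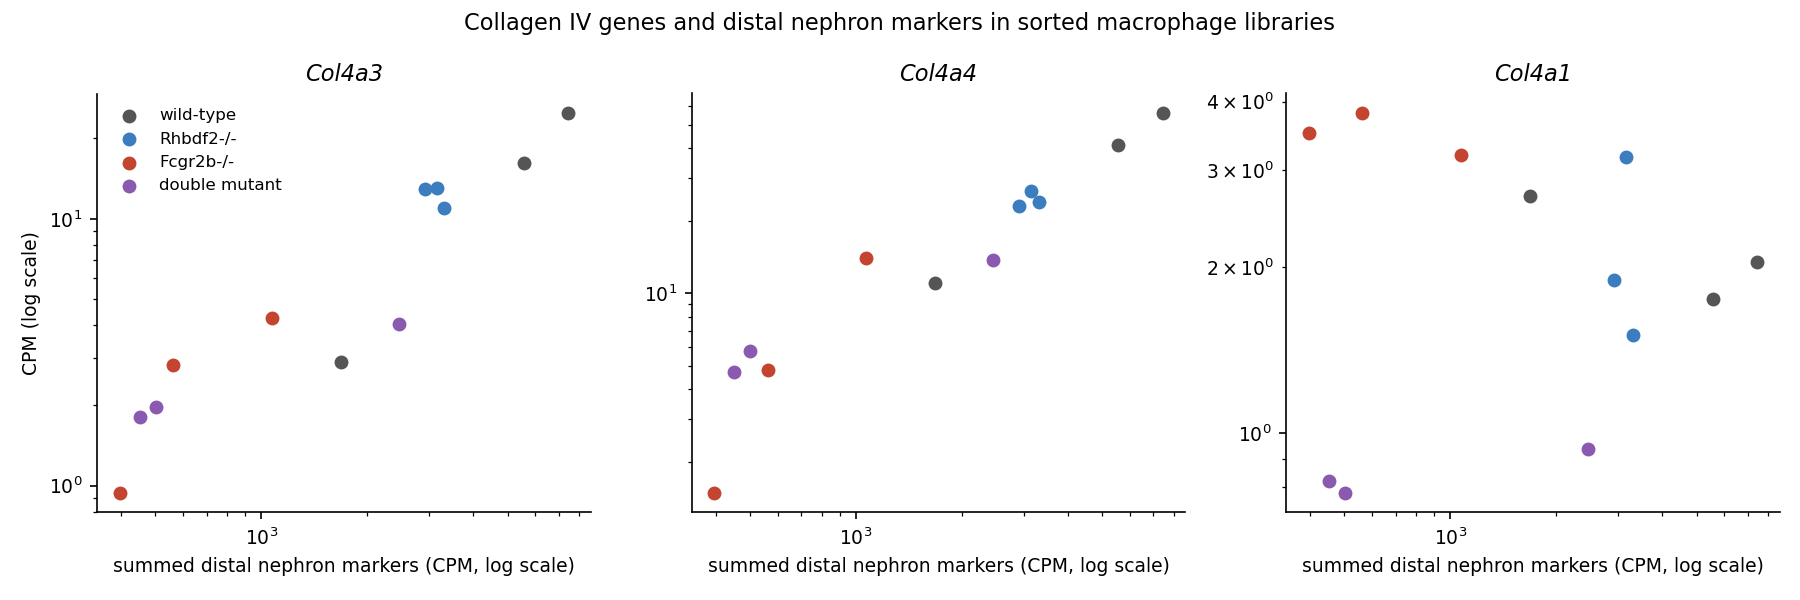
Col4a3, Col4a4 and Col4a1 in 12 sorted macrophage libraries (CPM, log scale) against the summed CPM of 9 distal nephron markers (log scale), coloured by genotype. Col4a3 runs from 0.936 to 25 CPM and Col4a4 from 1.48 to 56.3 CPM. Both are highest at the highest nephron marker sum and lowest at the lowest. The order is not kept throughout: both are higher in Fcgr2b-/- replicate 1 (sum 1071 CPM) than in wild-type replicate 3 (sum 1681 CPM). Col4a1 is lowest in the 3 double-mutant libraries, and markers of other cells are not drawn.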

How the data were processed

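Per the labels' protocols, whole kidney libraries were made from polyadenylated RNA with a TruSeq kit, macrophage libraries with SMART-Seq v4, and all were sequenced as single reads. The deposited expression values are log2 CPM per library, computed by the authors per the file headers; the values show a small prior count, an effective library size and genes filtered beforehand. The deposited table also holds the authors' log2 fold changes, p-values and FDR, and gene lengths. The submitters' processing notes name the builds mm10 and GRCm38, and the aligner, counter and annotation count as not given in the sources used here. The tissues were normalized separately and were tested separately. There were 0 columns of other samples and 0 pairs of identical libraries. Deposited starts, which count from 0, were raised by 1.

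CPM was the antilog of the deposited value. The planned count test did not apply to log2 values, so log2(CPM+1) was fitted with limma 3.58.1 (limma-trend) in R 4.3.3, all 4 genotypes of a tissue in the same fit, with adjustment over all genes of a comparison and calls at 0.05. On this scale the changes of low genes are understated. The procedure was tested on simulated data. These held far fewer changed genes than the Fcgr2b-/- and wild-type comparisons called, and a fixed spread, so they do not show how it performs here. Low values were whole multiples of 1 read (100% of those tested, tolerance 0.1 read), which gave depth; 3 reads lay at 0.0677 to 0.106 CPM in kidney, a floor for counting error only. The labels do not tie libraries to separate animals, and p-values thus reflect only how these libraries spread, which may be technical. The members and gene lists were chosen with earlier results of these data known. All members are reported; of other lists, up to 4 called genes per direction with the smallest p and a mean log2(CPM+1) of at least 1 could be named. Sums, ranges and marker values are descriptions. Alternatives covered the pseudocount, filter, scaling, groups fitted, voom on recovered reads, robust fitting and each library left out. Some genes of the lists are counted but not reported here by name.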

Additional observations from a re-analysis of the deposited data

Results flagged for a closer look

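Of 40 groups of 4 kidney libraries tested for a library far from the others, 2 stood out, as chance alone would give in about 1 in 20. Col4a3 in Fcgr2b-/- replicate 4 was at 28.6 CPM, beside 65.6 to 67.2 in the other libraries of its group. Col4a4 in wild-type replicate 2 was at 314 CPM, beside 332 in each of the others, a small distance in a very tight group.

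The effect of Rhbdf2 loss differed between mice without and with Fcgr2b, by limma's test of the interaction in kidney, for 8 of the 10 genes. The same test called 27.8% of all genes. The differences of effects, in log2(CPM+1), were -1.17 for Col4a1, -1.40 for Col4a2, 1.06 for Col4a3, 0.61 for Col4a4, -1.17 for Lama5, -0.67 for Lamb2, -0.62 for Lamc1 and -1.12 for Agrn.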

How the results depend on the processing

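Members called numbered 8 to 9 between Fcgr2b-/- and wild-type kidney, 8 to 9 between double mutant and Fcgr2b-/- and 8 in the interaction when each library was left out in turn. Against wild-type, double mutants had 1 gene called, lower, when only these groups were fitted (Col4a3), and 3 called, 1 higher (Nid1) and 2 lower (Col4a3 and Col4a4), when wild-type replicate 2, Fcgr2b-/- replicate 4 and double-mutant replicate 4 were left out together, an alternative chosen after seeing the data. Against Rhbdf2-/-, double mutants then had 2 called, 1 higher (Nid1) and 1 lower (Col4a3). The cause was not tested. Between Fcgr2b-/- and wild-type macrophages the calls, all lower, ranged from 2 to 6 with a library left out, with 5 without wild-type replicate 3 and 6 without Fcgr2b-/- replicate 1; low CPM limits these values. Over all single-gene results and alternatives 1095 kept their direction and side of the threshold, 13 came to pass it, 5 no longer did and 45 lost or changed sign, all of these between values called in neither fit. With each library left out in turn, the values that crossed or reached 0 ranged as follows. Between Fcgr2b-/- and wild-type kidney Col4a5 ranged from -0.13 to 0.04. Between double mutant and wild-type, Col4a1 ranged from -0.23 to 0.17, Col4a2 from -0.10 to 0.21, Lamc1 from -0.13 to 0.01 and Agrn from -0.18 to 0.03. Between double mutant and Rhbdf2-/-, Col4a1 ranged from -0.11 to 0.29, Col4a2 from 0.00 to 0.30, Lama5 from -0.15 to 0.03, Lamb2 from -0.13 to 0.00 and Agrn from -0.12 to 0.09. Between Rhbdf2-/- and wild-type, Lama5 ranged from -0.10 to 0.04 and Agrn from -0.14 to 0.02, and the interaction of Col4a5 from -0.13 to 0.04. In macrophages Lamc1 ranged from -0.40 to 0.17 between Fcgr2b-/- and wild-type. Between double mutant and Fcgr2b-/- macrophages Col4a3 ranged from -0.37 to 0.35, Col4a4 from -0.17 to 1.13 and Col4a5 from -0.51 to 0.09. Without the 3 libraries, Col4a5 was at 0.10 between Fcgr2b-/- and wild-type. Double mutant minus wild-type was then 0.17 for Col4a1, 0.07 for Lama5, 0.05 for Lamc1 and 0.10 for Agrn, double mutant minus Rhbdf2-/- was 0.03 for Lama5, 0.00 for Lamb2 and 0.09 for Agrn, and Rhbdf2-/- minus wild-type was 0.04 for Lama5 and 0.02 for Agrn. Under median-of-ratios scaling Agrn was at 0.01 between double mutant and Rhbdf2-/-, and the interaction of Col4a5 at 0.00. Rescaling moved the median of all genes by at most 0.025 (log2). No paired analysis was possible because the labels give no replicate number shared between groups.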
